A study of Homo sapiens with 6 samples.

Results

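ER-associated degradation (ERAD) is the route by which misfolded proteins of the endoplasmic reticulum (ER) are recognised, moved back across the membrane, tagged with ubiquitin and handed to the proteasome. Its machinery was examined here as a set of 32 genes, chosen by name for their known roles. They were found as 32 of the 60671 genes in the deposited count table. The set and the gene lists used below were chosen with earlier results of these data known. RNA of MM.1S, a human multiple myeloma cell line, had been sequenced from a wild-type line (WT) and from a CD38 knockout clone (CD38 KO), with 3 libraries of each. CD38 is a surface glycoprotein that hydrolyses NAD and is the target of anti-CD38 antibodies in myeloma, and the labels give the aim as a description of the phenotype after its loss.

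Both lines carried a lentiviral green fluorescent protein and a click beetle red luciferase. The knockout was made with CRISPR/Cas9 and is 1 clone, expanded in bulk, so differences between that clone and the WT population cannot be told apart from an effect of CD38 itself. Before RNA extraction, living cells had been sorted on CD38 staining, with positive cells kept from the WT line and negative cells from the clone. The labels call the replicates biological without saying whether they came from separate cultures, so the p-values below measure the spread between these libraries. The counts come from bulk RNA, in which a change in the share of cells expressing a gene and a change in RNA per cell cannot be told apart.

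In a plasma cell, which makes and secretes large amounts of immunoglobulin, the load of misfolded chains on ERAD is high, and the machinery is part of the secretory programme driven by the transcription factor XBP1. The process runs in steps. Mannose-trimming enzymes of the EDEM family and the lectins OS9 and ERLEC1 select misfolded glycoproteins, and the HRD1 complex, with the ubiquitin ligase SYVN1 (HRD1), the adaptor SEL1L, the organiser HERPUD1 and the derlins, forms the exit through the membrane. Ubiquitin-conjugating (E2) enzymes supply the ubiquitin, the ATPase VCP (p97) with its cofactors UFD1 and NPLOC4 pulls the chain out, and cytosolic factors take off the sugars and carry the chain to the proteasome.

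HERPUD1 and VCP stand at the 2 ends of this membrane step, HERPUD1 organising the ligase complex and VCP extracting its products, and they were among the most abundant members. The 250 bases upstream of their RefSeq transcription start sites (build GRCh38.p14) are shown because each holds an element known from the unfolded protein response, a different one in each gene. The first line is chr16:56931892-56932141 on the plus strand, with an ERSE-II element (ATTGG, any 1 base, CCACG) in capitals. The other is chr9:35072626-35072875 on the minus strand, with the core of the XBP1-binding element UPRE (TGACGTGG or TGACGTGA) in capitals.
HERPUD1: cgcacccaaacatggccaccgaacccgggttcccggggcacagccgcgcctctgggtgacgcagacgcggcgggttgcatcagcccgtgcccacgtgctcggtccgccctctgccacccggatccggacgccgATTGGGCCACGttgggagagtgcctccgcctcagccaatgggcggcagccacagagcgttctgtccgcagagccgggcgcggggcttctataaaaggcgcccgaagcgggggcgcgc
VCP: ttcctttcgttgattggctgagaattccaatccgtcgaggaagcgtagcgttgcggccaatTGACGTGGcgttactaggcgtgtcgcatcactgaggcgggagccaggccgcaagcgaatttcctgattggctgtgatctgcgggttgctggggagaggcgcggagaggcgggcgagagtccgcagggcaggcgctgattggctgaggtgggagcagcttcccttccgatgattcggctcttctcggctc

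Among the 26 members with a promoter window of 300 bases (250 before and 50 after the start) in the RefSeq table, HERPUD1 held ERSE-II, and UBE2J1, VCP and UBXN4 held the UPRE core. The search covered both strands, and the element of UBE2J1 was on the strand opposite to the gene. ERSE-II occurred in 0.0549% of all 27305 promoter windows and the UPRE core in 1.2%. Only exact matches were counted. The original ERSE (CCAAT and CCACG separated by 9 bases) was in 0 of the 26 windows and in 0.0806% of all windows. The HERPUD1 sequence above holds ccaat and ccaca with the same spacing, which differs from the ERSE in the last base and was not counted. HERPUD1, the member with ERSE-II, rose in CD38 KO. Of the 3 members with the UPRE core, VCP and UBXN4 were lower, each by a call that was lost in 4 of 16 alternatives, and UBE2J1 was not past the threshold. These matches describe letters in a window, not sites shown to be bound.

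The libraries held 61515519 to 72335496 counts. Values are given as CPM (the count scaled to a fixed library total), scaled with TMM factors, and genes were called changed at a Benjamini-Hochberg adjusted p under 0.05 in edgeR's quasi-likelihood test over all 20120 tested genes. CD38, the check of the labels, had 2545 to 3148 counts per WT library and 48 to 80 per CD38 KO library. The 7 plasma cell markers examined (SDC1, TNFRSF17, PRDM1, IRF4, XBP1, JCHAIN and MZB1) were all expressed and summed to 6404 to 6410 CPM in WT and 8526 to 8547 CPM in CD38 KO. Most of that rise came from JCHAIN (943.2 to 1950 CPM) and XBP1 (1315 to 2217 CPM), while MZB1 fell by 0.22 on the log2 scale and SDC1 was not past the threshold. Of 13 markers of B, T, myeloid, epithelial and stromal cells, the highest value in any library was 5.25 CPM, for CD3E, which went from 0.979 to 4.83 CPM while CD3D and CD3G stayed under 0.07 CPM. Mitochondrially encoded genes took 2.63% to 2.71% of counts in WT and 6.83% to 7.30% in CD38 KO, and without these genes in the fit the same 24 members were called in the same direction.

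Every one of the 32 members was expressed in MM.1S and passed the filter on low counts. In CD38 KO cells EDEM1 and 5 of the 6 HRD1 complex genes rose, with DERL1 not past the threshold (edgeR adjusted p = 0.150). The VCP adaptor genes UFD1 and NPLOC4 fell. VCP was lower too, but its groups overlapped and its call was lost in 4 of the 6 fits that left out 1 library (edgeR adjusted p up to 0.156). The E2 enzymes UBE2G1 and UBE2G2 moved in opposite directions, and so did the lectins OS9 and ERLEC1. In all, 13 members rose, 11 fell and 8 were not past the threshold, so 75% were called, where 44.4% of all tested genes were called (22.8% higher and 21.6% lower). Of the 7593 tested genes at or above the level of the least abundant member (17.2 CPM), 64.3% were called, 33.1% higher and 31.1% lower. The members' share lay nearer to that of these genes. They share only a lower limit with the members and are not matched to them in level. No member was called with a change of at least 2-fold, as 11.3% of all tested genes and 4.68% of those at or above 17.2 CPM were. The members' log2 fold changes ran from -0.43 to 0.67. The median size of their change was 0.209 on the log2 scale, beside 0.212 for the genes at or above 17.2 CPM. The members' median signed log2 fold change was 0.0705, beside 0.000212 for all tested genes and 0.00826 for those at or above 17.2 CPM. For 23 of the 32 members every library of the higher group lay above every library of the lower one. This held for 52.5% of all tested genes and for 69.6% of those at or above 17.2 CPM. The counts by role below are of few genes each. They can be read against the same shares of genes at or above 17.2 CPM, 33.1% higher and 31.1% lower.

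**Figure D1:**
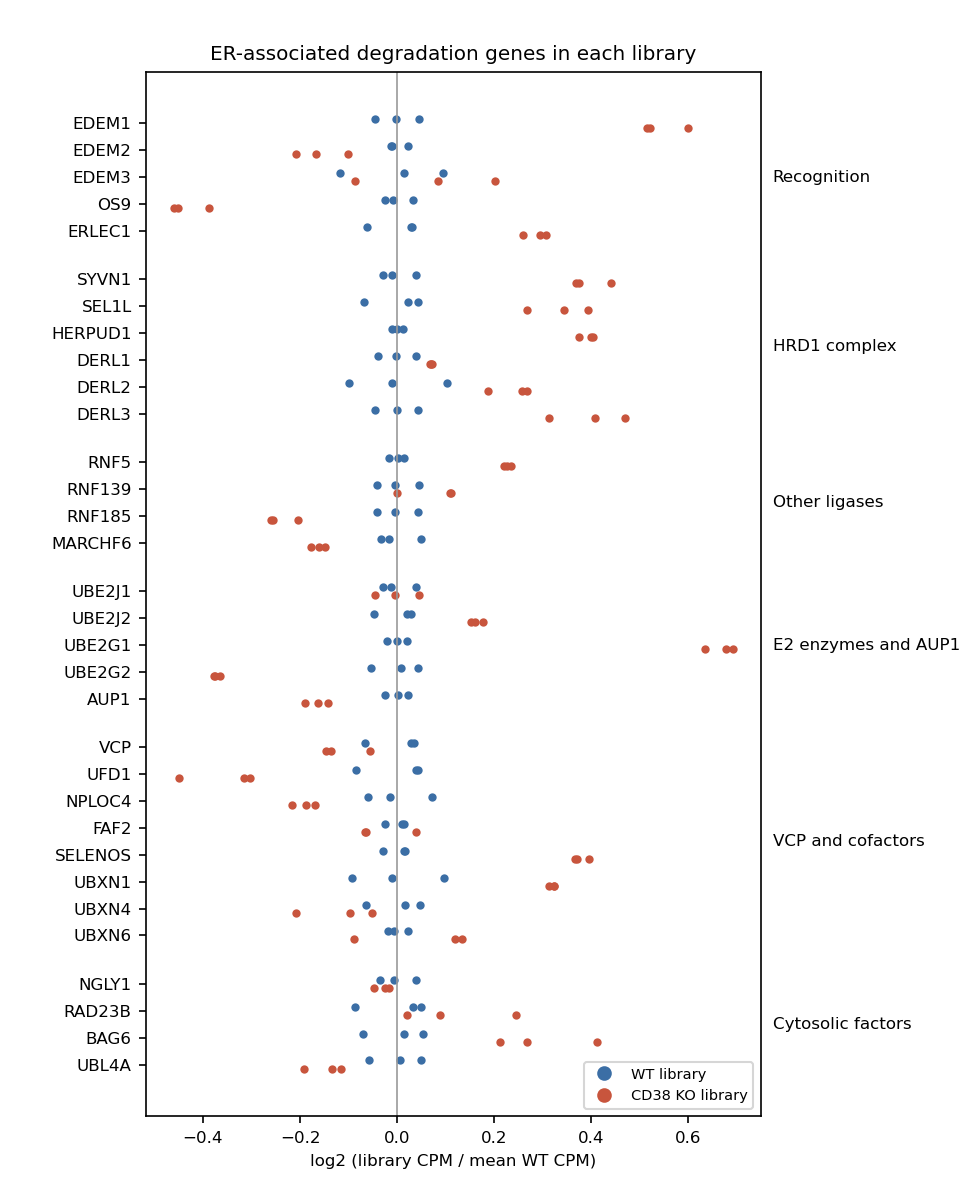
Each dot is 1 library, plotted as the log2 ratio of its CPM to the mean WT CPM of that gene, with WT in blue and CD38 KO in red (3 libraries each) and the 32 genes ordered by their role. All 3 CD38 KO libraries of the 6 HRD1 complex genes lie to the right of the WT mean, while those of VCP, UFD1 and NPLOC4 lie to the left of it.

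Levels per length spanned a wide range. Divided by exon length (GENCODE 29), HERPUD1 was the most abundant member, at 889.5 CPM per kb in WT and 1168 in CD38 KO, and lay at percentile 99.8 of the tested protein-coding genes. VCP followed at 214.6 and 198.5 CPM per kb, then SEL1L at 136.3 and 171.9. The E2 enzyme UBE2J1 stood at 105.4 and 105.3 CPM per kb, EDEM1 at 96.3 and 140.5 and AUP1 at 91.7 and 81.8. The least abundant members per length were the VCP cofactor UBXN6, at 3.20 and 3.33 CPM per kb, and UFD1, at 8.74 and 6.83. So the partners of 1 complex differed in level: the ligase SYVN1 stood at 30.9 CPM per kb in WT, below its adaptor SEL1L, and NPLOC4 stood at 39.9, above its heterodimer partner UFD1. Exon length sums every annotated exon of a gene, so these levels depend on which transcripts the cells use.

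**Figure D2:**
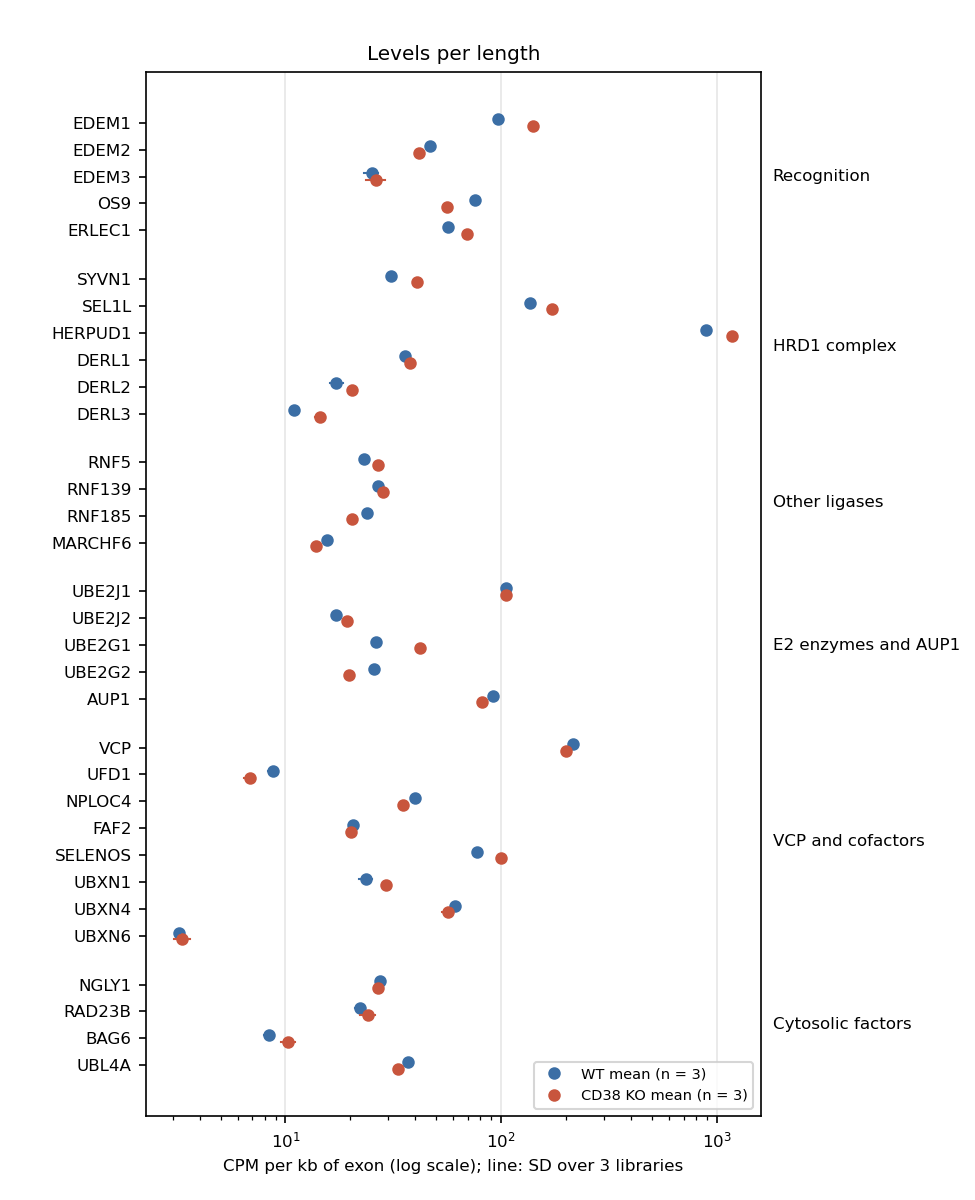
The mean level of each member is shown in CPM per kb of exon on a log axis, WT in blue and CD38 KO in red, with a line for the SD over 3 libraries. HERPUD1 stands apart at 889.5 and 1168 CPM per kb and UBXN6 is lowest, and the distance between members is far larger than the distance between the groups.

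Of the 5 recognition factors, 2 were higher, 2 lower and 1 not past the threshold. Among all tested genes 22.8% were called higher and 21.6% lower, and among those at or above 17.2 CPM 33.1% and 31.1%. EDEM1, an ER protein that speeds the trimming of mannose from misfolded glycoproteins, rose the most of the 5 factors. It is ENSG00000134109 on chromosome 3, 5187646 to 5219957 (GENCODE 29, GRCh38). The WT libraries had 671.1, 630.6 and 649.95 CPM of EDEM1 and the CD38 KO libraries 985.3, 933.8 and 929.0. All CD38 KO libraries lay above all WT libraries, by 1.46-fold (log2 fold change 0.55 with an SE of 0.0375, edgeR adjusted p = 1.28e-10). Its relatives did not follow. EDEM2, which starts mannose trimming in human cells, was lower, from 89.4 ± 1.21 to 80.1 ± 3.00 CPM (mean and SD, n = 3; log2 fold change -0.16). EDEM3, which continues the trimming, was at 195.6 ± 14.4 and 205.5 ± 20.6 CPM (SD, n = 3), with groups that overlapped and a difference between -0.0705 and 0.21 on the log2 scale (2 SE on each side). Without CD38 KO replicate 2, EDEM3 was past the threshold, with a log2 fold change of 0.15 (edgeR adjusted p = 0.0424).

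OS9 and ERLEC1 are the lectins that read trimmed glycans and deliver the substrate to SEL1L, and their RNA moved in opposite directions. OS9 (ENSG00000135506; chromosome 12, 57693955 to 57721557) had 400.2, 384.6 and 389.2 CPM in WT and 286.2, 299.05 and 284.6 in CD38 KO. It was lower in every CD38 KO library, with a log2 fold change of -0.43 (standard error 0.0380, edgeR adjusted p = 6.20e-09), the largest fall of any member. ERLEC1 had 140.8, 150.1 and 149.8 CPM in WT and 181.8, 175.8 and 180.3 in CD38 KO, 1.22-fold higher (log2 fold change 0.29 with an SE of 0.0418, edgeR adjusted p = 7.55e-06). Per kb of exon, OS9 was the more abundant of the pair in WT, at 75.7 CPM per kb against 56.7. In CD38 KO the order was 56.1 for OS9 and 69.2 for ERLEC1. Without division by exon length, OS9 stayed above ERLEC1 in CD38 KO, at means of 290.0 and 179.3 CPM. The genes around OS9 were lower as well: of its 20 nearest tested protein-coding genes, 13 were called lower and 1 higher, and their median log2 fold change was -0.47. The part of that neighbourhood in the fall of OS9 was not tested.

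In the HRD1 complex 5 of 6 members rose and 0 fell. Among all tested genes 22.8% rose, and among those at or above 17.2 CPM 33.1%. HERPUD1, a short-lived ubiquitin-like membrane protein that gathers the complex and is strongly induced by ER stress, carried the most RNA. It is ENSG00000051108 on chromosome 16, 56932048 to 56944863. Its WT libraries had 4549, 4584 and 4623 CPM and its CD38 KO libraries 6045, 6069 and 5948. The groups were far apart relative to their spread, and the rise was 1.31-fold (log2 fold change 0.39 with an SE of 0.0304, edgeR adjusted p = 8.44e-10). The 20 neighbouring genes of HERPUD1 had a median log2 fold change of -0.0401, and those of EDEM1 had 0.00666, so the rises of these genes were larger than the median of the genes around them.

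SEL1L, which holds the ligase and its substrate receptors together, rose by a log2 fold change of 0.34 (standard error 0.0392, edgeR adjusted p = 4.48e-07). Its values were 1342, 1242 and 1323 CPM in WT and 1710, 1567 and 1653 in CD38 KO. SYVN1, the ligase itself, went from 174.2, 166.2 and 168.4 CPM to 219.1, 230.2 and 219.9 CPM, a log2 fold change of 0.40 (standard error 0.0404, edgeR adjusted p = 5.85e-08). Ligase and adaptor thus rose by similar amounts, and neither had groups that overlapped. Exons of SYVN1 overlap those of other genes, among them MRPL49 and FAU, on the same strand for 8.39% of their length and on the opposite strand for 6.48%, and the strand setting of the counts is not known. MRPL49 rose by a log2 fold change of 0.19, less than SYVN1, and FAU was not past the threshold (0.0977).

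The derlins, rhomboid-like membrane proteins through which the chain leaves the ER, differed among themselves, with 2 of 3 higher. DERL2 went from 109.9 ± 7.76 to 129.7 ± 3.85 CPM (mean and SD, n = 3; edgeR adjusted p = 0.000497, log2 fold change 0.24). DERL3, the derlin most tied to secretory cells and to XBP1, had 40.3, 41.6 and 42.9 CPM in WT and 51.7, 57.7 and 55.2 CPM in CD38 KO (log2 fold change 0.40 with an SE of 0.0567, edgeR adjusted p = 5.84e-06). DERL1, the most abundant derlin, stood at 254.9 ± 6.98 and 267.5 ± 0.502 CPM (SD, n = 3). Its log2 fold change of 0.0698 was not past the threshold, lay between -0.00634 and 0.15 (2 SE on each side), and was -0.0134 with library size alone as the scaling. The value of DERL3 is the least certain of the complex, because 77.0% of its exon bases overlap exons of SMARCB1 on the opposite strand. SMARCB1, a chromatin remodelling subunit, rose from 111.5 ± 4.84 to 157.5 ± 4.93 CPM (mean and SD, n = 3; log2 fold change 0.50), and its part in the counts of DERL3 was not tested.

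Of 4 other ligases of the ER membrane, 1 was higher, 2 were lower and 1 was not past the threshold. Among all tested genes 22.8% were higher and 21.6% lower, and among those at or above 17.2 CPM 33.1% and 31.1%. RNF185, which works in a branch of ERAD apart from HRD1, fell in every CD38 KO library. Its values were 82.4, 80.3 and 85.2 CPM in WT and 71.8, 69.0 and 69.2 in CD38 KO (log2 fold change -0.24 with an SE of 0.0474, edgeR adjusted p = 0.000281). MARCHF6, the large ligase whose known substrates include the sterol enzyme SQLE, had 181.8, 171.9 and 173.8 CPM in WT and 155.5, 158.5 and 157.2 in CD38 KO (log2 fold change -0.16, edgeR adjusted p = 0.00240). RNF5, the close relative of RNF185, went the other way, from 26.8, 27.4 and 27.2 CPM to 31.7, 31.6 and 31.9 CPM (log2 fold change 0.23, edgeR adjusted p = 0.00533). With library size alone as the scaling, RNF5 was no longer past the threshold (edgeR adjusted p = 0.0689), and reads may be shared with its processed pseudogene RNF5P1, which had 90 to 110 counts per library. RNF139 (TRC8), a sterol-sensing ligase, was at 72.4 ± 2.18 and 76.2 ± 3.28 CPM (SD, n = 3), with overlapping groups.

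The RNA of clients of these sterol-linked ligases was measured beside them. Such counts do not measure how much of a client protein is degraded. SQLE, which MARCHF6 degrades, had 2493 to 2889 counts per WT library and 66 to 141 per CD38 KO library (log2 fold change -4.51). INSIG1, a sterol-regulated ER protein that is itself degraded by ERAD, rose by a log2 fold change of 0.81, and its relative INSIG2 was at -0.0362. SQLE and INSIG1 therefore differed between the groups by more than the 4 ligases, whose log2 fold changes lay between -0.24 and 0.23, while INSIG2 did not.

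Among the E2 enzymes, UBE2G1 rose and UBE2G2 fell. Per kb of exon they stood close together in WT, at 26.3 CPM per kb for UBE2G1 and 25.6 for UBE2G2, and apart in CD38 KO, at 41.8 and 19.8. UBE2G2 is the E2 that AUP1 recruits to the ER surface, and UBE2G1 is its paralog, described as building the same type of ubiquitin chain. UBE2G1 (ENSG00000132388; chromosome 17, 4269259 to 4366628) had 117.8, 121.2 and 119.4 CPM in WT and 192.9, 185.5 and 190.98 in CD38 KO. This was the largest change of any member, 1.59-fold (log2 fold change 0.67 with an SE of 0.0405, edgeR adjusted p = 1.76e-11). UBE2G2 (ENSG00000184787; chromosome 21, 44768580 to 44802019) had 190.3, 195.1 and 182.5 CPM in WT and 146.99, 145.9 and 145.8 in CD38 KO (log2 fold change -0.37 with an SE of 0.0409, edgeR adjusted p = 1.64e-07). Neither gene had overlapping groups. Around UBE2G1, 12 of the 20 neighbouring genes rose and 2 fell (median log2 fold change 0.34), and their part in its rise was not tested. The 20 neighbours of UBE2G2 had a median of -0.0638.

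AUP1, the lipid droplet and ER protein that anchors UBE2G2, was lower together with its partner. It had 245.3, 237.1 and 241.8 CPM in WT and 211.7, 218.8 and 215.7 in CD38 KO (log2 fold change -0.16, edgeR adjusted p = 0.00130). Exons of HTRA2 on the opposite strand overlap 18.3% of the exon bases of AUP1, and HTRA2 fell by 1.07 on the log2 scale; the part of its reads in the counts of AUP1 was not tested. UBE2J1, the membrane-anchored E2 that works with HRD1, was at 452.0 ± 11.2 and 451.8 ± 14.3 CPM (SD, n = 3). The interval of its difference, from -0.0768 to 0.0752 on the log2 scale (2 SE on each side), holds only small changes. UBE2J2, its paralog, rose by a log2 fold change of 0.16 (edgeR adjusted p = 0.00562), and with library size alone its change was 0.0798 and not past the threshold (edgeR adjusted p = 0.160).

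**Figure D3:**
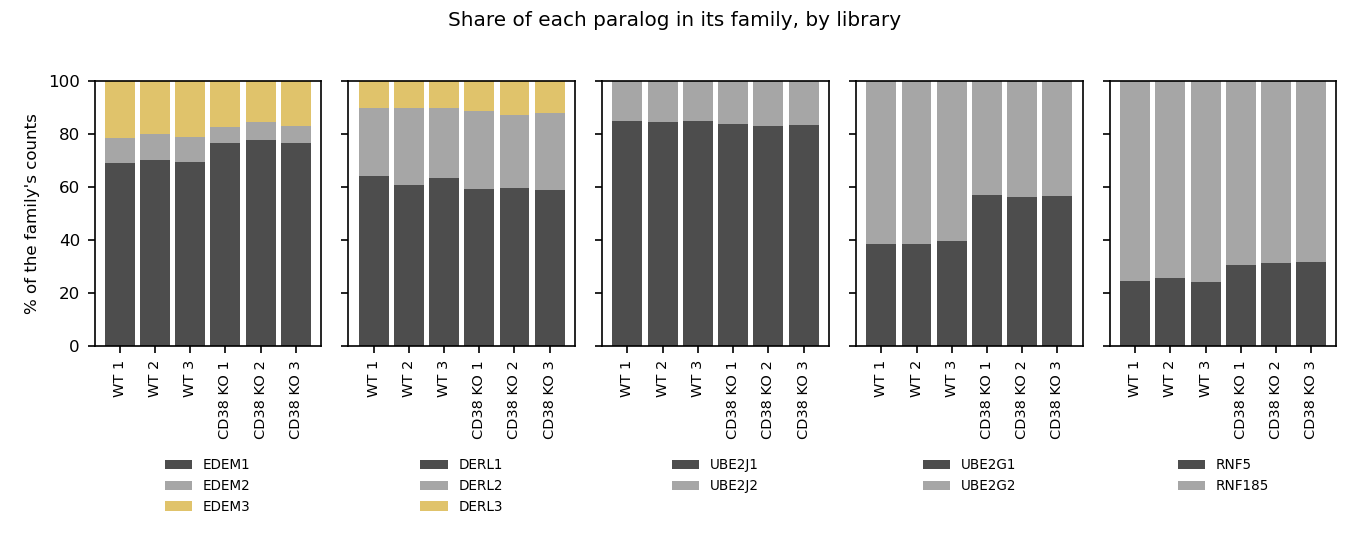
Stacked bars give, for each of the 6 libraries, the percent of the summed counts of a paralog family that each gene took, on an axis from 0 to 100. The UBE2G1 part grows from about 39% in WT to about 56% in CD38 KO, while the UBE2J panel changes little.

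Shares within a family do not depend on how libraries are scaled. UBE2G1 took 38.2%, 38.3% and 39.5% of the UBE2G1 and UBE2G2 counts in WT and 56.8%, 55.98% and 56.7% in CD38 KO. EDEM1 took 69.6 ± 0.50% of the counts of the 3 EDEM genes in WT and 76.9 ± 0.742% in CD38 KO (SD, n = 3). RNF5 took 24.7 ± 0.648% of the RNF5 and RNF185 counts in WT and 31.2 ± 0.482% in CD38 KO (SD, n = 3). In each of these families the groups were separate, and the two-sided exact permutation test gave p = 0.1, its lower limit with 3 against 3 libraries. Smaller shifts were seen in the other families: DERL3 went from 10.2 ± 0.112% to 12.1 ± 0.685% of derlin counts and UBE2J1 from 84.8 ± 0.248% to 83.3 ± 0.369% of UBE2J counts (SD, n = 3; two-sided exact permutation p = 0.1 for each). DERL1 went from 62.7 ± 1.68% to 59.2 ± 0.278% (SD, n = 3; exact permutation p = 0.1), and the share of DERL2 had groups that overlapped (exact permutation p = 0.2).

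The segregase that extracts the chain was lower in UFD1 and NPLOC4, and less surely in VCP. Of the 8 genes of VCP and its cofactors, 4 fell, 2 rose and 2 were not past the threshold. Among all tested genes 21.6% fell, and among those at or above 17.2 CPM 31.1%. UFD1 (ENSG00000070010; chromosome 22, 19449910 to 19479215), which binds ubiquitin chains, had 71.9, 78.6 and 78.4 CPM in WT and 55.9, 61.4 and 61.9 in CD38 KO. Its log2 fold change was -0.35 ± 0.0547 (SE; edgeR adjusted p = 1.65e-05), while its 20 neighbouring genes had a median of 0.11. NPLOC4, with which UFD1 forms the adaptor, had 401.3, 366.2 and 377.8 CPM in WT and 328.5, 339.6 and 335.4 in CD38 KO (log2 fold change -0.19 with an SE of 0.0402, edgeR adjusted p = 0.000515). Both adaptor genes had separate groups.

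VCP changed less than UFD1 and NPLOC4, and its groups overlapped. The WT libraries had 1196, 1115 and 1190 CPM and the CD38 KO libraries 1062, 1122 and 1054, a log2 fold change of -0.11 (standard error 0.0380, edgeR adjusted p = 0.0202). Leaving out WT replicate 1 ended the call (edgeR adjusted p = 0.0788, log2 fold change -0.0971), and so did WT replicate 3 (0.112, -0.0988), CD38 KO replicate 1 (0.0745, -0.0977) and CD38 KO replicate 3 (0.156, -0.0862). Its adjusted p ran from 6.91e-05 to 0.156 across all alternatives. UBXN4 (erasin), an ER membrane anchor for VCP, was similar, at 316.1, 298.9 and 322.9 CPM in WT and 301.8, 270.8 and 292.5 in CD38 KO (log2 fold change -0.12, edgeR adjusted p = 0.0379). The call also ended on leaving out WT replicate 1 (edgeR adjusted p = 0.0908, log2 fold change -0.11), WT replicate 3 (0.185, -0.0938), CD38 KO replicate 2 (0.177, -0.0725) and CD38 KO replicate 3 (0.0912, -0.12). Its adjusted p ran from 0.000588 to 0.185 across all alternatives.

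Among the VCP partners, SELENOS and UBXN1 rose. SELENOS (VIMP), a selenoprotein that links derlins to VCP, had 283.6, 292.1 and 292.5 CPM in WT and 372.9, 380.8 and 374.1 in CD38 KO (log2 fold change 0.38 with an SE of 0.0368, edgeR adjusted p = 2.88e-08). Of its 14 neighbouring genes near the end of chromosome 15, 12 rose and 1 fell (median log2 fold change 0.60, larger than that of SELENOS); their part in its rise was not tested. UBXN1, a cofactor that binds ubiquitin and VCP, had 63.7, 55.9 and 59.1 CPM in WT and 73.99, 74.5 and 74.6 in CD38 KO (log2 fold change 0.32, edgeR adjusted p = 4.03e-05), and its 20 neighbours had a median of 0.0528. FAF2 (UBXD8), which recruits VCP to the ER and to lipid droplets, was at 122.03 ± 1.85 and 119.5 ± 5.00 CPM and UBXN6 at 16.9 ± 0.249 and 17.6 ± 1.47 CPM (SD, n = 3), with overlapping groups. The intervals of their log2 differences (2 SE on each side) were -0.12 to 0.0580 and -0.11 to 0.22, and FAF2 was lower and past the threshold with library size alone (log2 fold change -0.11, edgeR adjusted p = 0.0356).

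Of the 4 cytosolic factors, 1 was higher, 1 lower and 2 not past the threshold. So 50% were called, beside 44.4% of all tested genes and 64.3% of those at or above 17.2 CPM. BAG6, a chaperone that keeps extracted chains soluble, had 44.8, 42.3 and 46.1 CPM in WT and 51.4, 59.0 and 53.5 in CD38 KO (log2 fold change 0.30 with an SE of 0.0598, edgeR adjusted p = 0.000305). UBL4A, which binds BAG6 in the same complex, was lower, at 100.2, 93.1 and 97.3 CPM in WT and 84.9, 89.4 and 88.3 in CD38 KO (log2 fold change -0.15, edgeR adjusted p = 0.0134). Without WT replicate 1, WT replicate 3 or CD38 KO replicate 1 the call of UBL4A was lost (edgeR adjusted p = 0.0601, 0.0530 and 0.0574), and its adjusted p ran from 0.000221 to 0.0601 across all alternatives. NGLY1, the enzyme that strips glycans from extracted proteins, was at 228.8 ± 6.00 and 224.2 ± 2.46 CPM and the shuttle RAD23B at 102.1 ± 5.19 and 110.99 ± 8.96 CPM (SD, n = 3), and neither was past the threshold. NGLY1 was lower and past it with library size alone (log2 fold change -0.11, edgeR adjusted p = 0.0150), and RAD23B was higher and past it without CD38 KO replicate 2 (0.17, 0.0180).

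**Figure D4:**
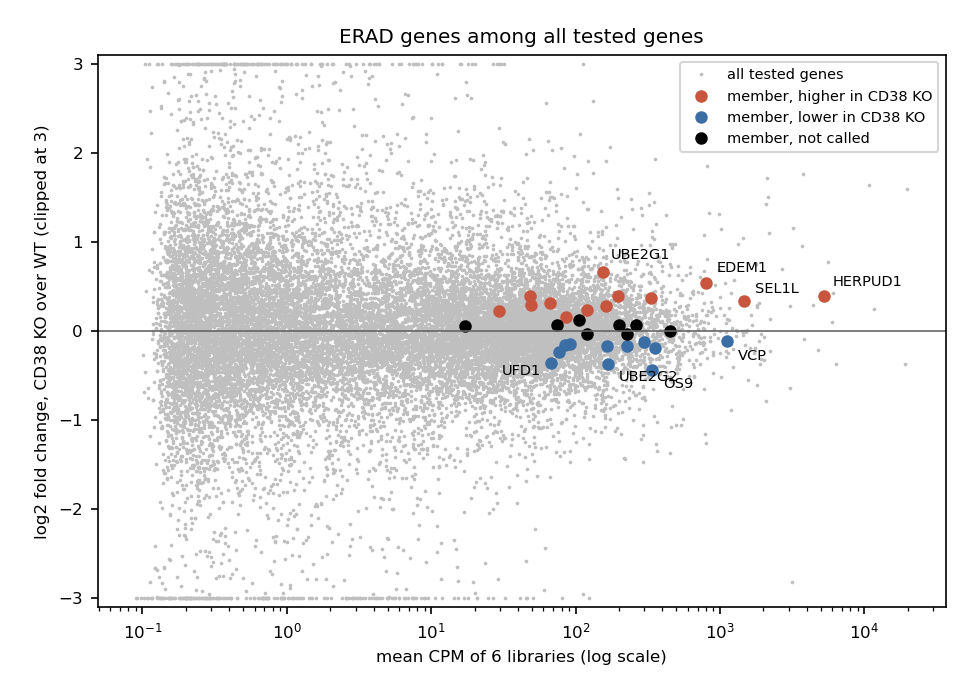
Grey dots are all 20120 tested genes by mean CPM over the 6 libraries (log axis) and log2 fold change of CD38 KO over WT, with values beyond 3 drawn at 3. The 32 members (red for higher, blue for lower, black for not called) lie to the right of most genes and between -0.43 and 0.67, with HERPUD1 farthest to the right.

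The wider pathway was described with 48 further ERAD genes listed by function, of which all were tested, 17 rose, 11 fell and 20 were not past the threshold (58.3% called, median log2 fold change 0.0327). That share lies between the 44.4% of all tested genes and the 64.3% of genes at or above 17.2 CPM. Some of the listed genes, FBXO2 and FAF1 among them, did not reach 17.2 CPM. With library size alone 19 of them fell. The largest rises were in FBXO2, an F-box protein that binds glycoproteins (5.20 ± 0.530 to 12.8 ± 0.570 CPM, SD, n = 3; log2 fold change 1.3), FAF1, MAN1C1, RNF170 and FAM8A1, at 0.75, 0.68, 0.63 and 0.62. FAM8A1, a partner that helps HRD1 and HERPUD1 assemble, went from 20.9 ± 0.687 to 32.1 ± 1.83 CPM (SD, n = 3). It rose, as most members of that complex did. HERPUD2 and JKAMP, on the same list of ligases and partners, fell, with log2 fold changes of -0.23 and -0.26. MAN1C1 is a mannosidase, and RNF170 is a ligase bound to erlins. The largest falls were in DNAJC10 (ERdj5), the reductase that opens disulfides before retrotranslocation (375.1 ± 6.85 to 224.6 ± 12.2 CPM, SD, n = 3; log2 fold change -0.74), UBE4B, NSFL1C, SVIP and USP25, at -0.49, -0.49, -0.45 and -0.42. NSFL1C (p47) and SVIP are cofactors of VCP and UBE4B is a chain-extending ligase that works with it. All of them were lower, as UFD1 and NPLOC4 were among the members, where SELENOS and UBXN1 rose. FAF1, listed as a VCP cofactor too, rose at a low level, from 2.42 ± 0.538 to 4.06 ± 0.485 CPM (SD, n = 3). Of the 8 further VCP cofactors on this list, 3 fell, 1 rose and 4 were not past the threshold. Of the 19 further ligases and partners, 2 fell, 9 rose and 8 were not past it. Among genes at or above 17.2 CPM, 33.1% rose and 31.1% fell (22.8% and 21.6% of all tested genes).

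Regulators of the ERAD genes were also examined. Of 9 regulator genes (the unfolded protein response, its proteases and NFE2L1), 5 rose, 1 fell and 3 were not past the threshold. The 66.7% called is near the 64.3% of genes at or above 17.2 CPM. XBP1, the transcription factor that drives EDEM1, DERL3 and other members, had 1284, 1339 and 1323 CPM in WT and 2237, 2220 and 2195 in CD38 KO (log2 fold change 0.75). ERN1 (IRE1), the sensor that splices XBP1 RNA, rose by a log2 fold change of 0.72. ATF4 and MBTPS1, the protease that cuts ATF6, rose by 0.28 and 0.32 and ATF6B by 0.20, which was no longer past the threshold with library size alone (edgeR adjusted p = 0.0837). ATF6 itself was lower, from 215.5 ± 3.58 to 191.1 ± 5.70 CPM (mean and SD, n = 3; edgeR adjusted p = 0.00117, log2 fold change -0.17). EIF2AK3 (PERK), MBTPS2 and NFE2L1, at 0.0800, 0.0264 and 0.0324, were not past the threshold. Counts per gene do not separate spliced from unspliced XBP1.

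**Figure D5:**
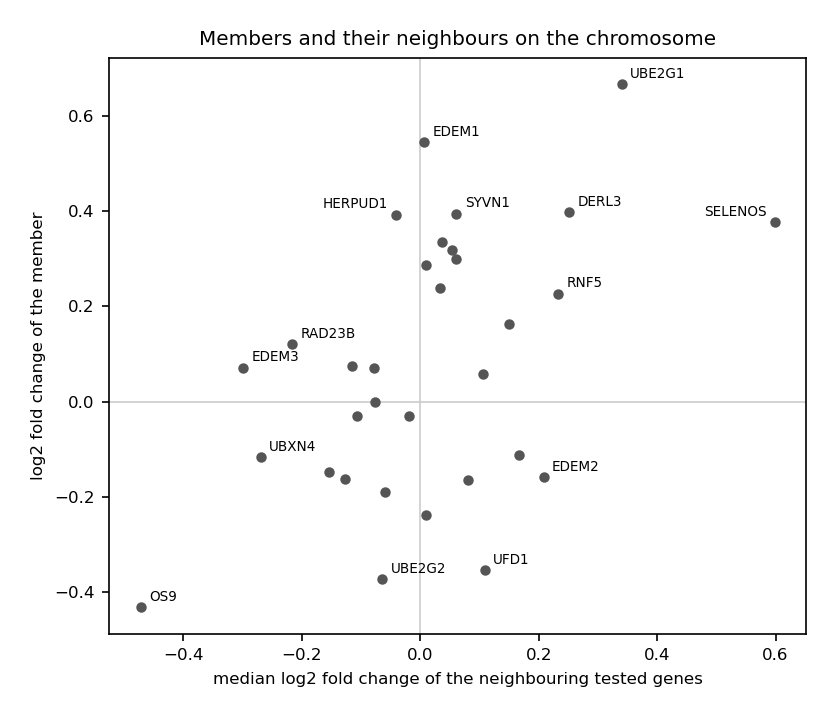
Each dot is 1 of the 32 members, with the median log2 fold change of its nearest tested protein-coding genes (up to 10 on each side in GENCODE 29 order) on the horizontal axis and its own log2 fold change on the vertical axis. OS9, UBE2G1 and SELENOS lie where member and neighbours moved the same way, whereas EDEM1, HERPUD1, SYVN1 and UBE2G2 lie near 0 on the horizontal axis.

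The genes around each member were examined after its values had been seen. For 4 members the neighbours had a median log2 fold change over 0.2 in the member's own direction while the member was called: UBE2G1 (0.34), SELENOS (0.60), DERL3 (0.25) and RNF5 (0.23). On the lower side these were OS9 (-0.47) and UBXN4 (-0.27). For EDEM2 the neighbours went against the member, with a median of 0.21 and 8 of 20 higher, while EDEM2 was lower. For SEL1L, SYVN1 and ERLEC1 the neighbours' medians were 0.0365, 0.0609 and 0.0102, all below the members' own changes of 0.34, 0.40 and 0.29. What lies behind the shared direction of some neighbourhoods was not tested.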

How the data were processed

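The authors deposited raw read counts per gene, 1 column per library, with no normalization. STAR 2.7.9a, Partek and DESeq2 appear in the submitters' processing notes with no role. The build, annotation, counter and strand setting were not given in the sources used here. Counts of overlapping genes or gene copies are therefore uncertain. Of 60871 lines, 200 repeated an identifier with the same counts and were dropped. WT and CD38 KO (3 libraries each) were compared in R 4.3.3 with edgeR 4.0.16 (TMM, filterByExpr, robust quasi-likelihood test, Benjamini-Hochberg over all 20120 tested genes, threshold 0.05). SE is the log2 fold change divided by the square root of the F statistic. Paralog shares were compared by exact permutation. The procedure was tested on simulated counts. No pair of libraries agreed within sampling noise (chi-square per degree of freedom at least 5.49). A count of 0 allows up to 3 counts; such limits cover counting error only. Positions and exon lengths came from GENCODE 29, promoters from RefSeq (GRCh38.p14). Alternatives were other scalings (RLE, upper quartile, library size alone), 2 other filters, DESeq2 1.42.0, limma-voom (limma 3.58.1), a replicate block, each library left out, no mitochondrially encoded genes and protein-coding genes only. Members and lists were chosen with earlier results of these data known. Values per library are given for called members with a log2 change of at least 0.5 in size and up to 2 more per role with the smallest adjusted p; those of other members, the gene neighbourhoods and overlapping genes were added after values were seen. A listed gene that this rule takes is not reported here.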

Additional observations from a re-analysis of the deposited data

How the results depend on the processing

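Over 16 alternatives each, the 32 members gave 512 recomputed values: 494 kept their side of the threshold, 13 lost a call (VCP, UBXN4, UBL4A, RNF5 and UBE2J2), 5 gained one (EDEM3, FAF2, NGLY1 and RAD23B) and no called member changed direction. With library size alone all log2 fold changes moved by a median of -0.0833, 11 members rose and 13 fell, and over all genes 3632 rose and 5570 fell, where TMM gave 4592 and 4342. On the wider ERAD list that scaling gave 19 genes lower in place of 11. Leaving out each library gave 13 to 15 members higher and 8 to 11 lower, with fewer samples in each fit. Replicate numbers did not pair the libraries: deviations of same-numbered libraries correlated at 0.0305, 0.00691 and -0.0193, and not every library correlated best with its own number. With the number as a block, 14 members rose and 11 fell, and RAD23B was called (edgeR adjusted p = 0.0376). Per kb of exon, the share differences (CD38 KO minus WT, percentage points) were 10.01 for EDEM1, -7.71 for EDEM2, -2.30 for EDEM3, 2.84 for DERL3 and 8.02 for RNF5, against 7.33, -3.06, -4.27, 1.90 and 6.48 in counts, since the genes differ in exon length. Depth did not limit the members, the least abundant of which had a mean of 17.2 CPM, whereas a count of 0 allows 0.0405 to 0.0504 CPM.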
